A study of Mus musculus with 2 samples.

Results

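The endocardial cells described here were endothelial cells of the mouse heart at E12.5 in which the transcript of Npr3, the natriuretic peptide clearance receptor, was read at least 1 time. They were chosen in 3 steps from every barcode with at least 1000 unique molecular identifiers (UMIs, counted transcript molecules), at least 500 genes and a mitochondrial share of at most 20%. The cardiac troponin genes Tnnt2 and Tnnc1 together had to stay under 30 UMIs per 10000, at least 3 UMIs had to come from at least 2 of the 6 endothelial genes Pecam1, Cdh5, Egfl7, Emcn, Ecscr and Esam, and at least 1 UMI had to come from Npr3. Of 8740 cells that passed the minimums, 111 met the rule. The mutant, of genotype Tbx18-Cre; Prmt1 fl/fl;YFP/+, gave 74 of 4640 cells, and the control, of genotype Tbx18-Cre; YFP/+, gave 37 of 4100 cells. Both groups therefore carried the Cre and a YFP allele, and they differed by the floxed Prmt1 alleles. Whole hearts were digested with TrypLE and profiled with a droplet kit in 1 library per genotype, and the sources used here give neither the number of embryos pooled nor any sorting. With 1 library per genotype no difference has a replicate check, no p-value was computed, and each 95% interval covers counting error only.

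The endocardium is the endothelial lining of the heart chambers and valves. It signals to the overlying muscle through ligands such as neuregulin and endothelin, forms the valve cushions by endothelial-to-mesenchymal transition, and contributes to the coronary vessels. Npr3 is widely used as an endocardial marker in the embryonic heart, and its product binds natriuretic peptides and removes them from the extracellular space. Tbx18-Cre is an epicardial driver, and the series title calls the Prmt1 deletion epicardial-specific, so the endocardium is a compartment outside the named target. Which cells the Cre acted in was not measured.

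The 2 libraries held similar totals, 48527471 UMIs in the mutant and 49323576 UMIs in the control, and the mutant matrix had been filtered by the authors while the control matrix had not. The Npr3-positive cells summed to 953667 UMIs in the mutant and 500992 UMIs in the control, with medians of 5658 and 5319 UMIs per cell. A few deep barcodes carried much of the control sum. Its deepest barcode gave 19.7% of the UMIs and the deepest 5 gave 58.8%, whereas in the mutant these shares were 5.10% and 24.4%. Some barcodes within a library matched each other so closely in their counts that they may be 1 cell counted under 2 barcodes. Of the Npr3-positive barcodes with at least 8000 UMIs, 12 of 28 in the mutant and 2 of 12 in the control had such a match (a chi-square per degree of freedom of 0.994 to 1.33 in the mutant and 1.12 in the control). Of the 12 in the mutant, 8 matched an Npr3-positive cell, 2 an Npr3-negative endothelial cell and 2 a cell outside the endothelial gate. The same cell may thus have entered both the Npr3-positive and the Npr3-negative sum. Leaving out the shallower barcode of each matching pair left 69 mutant and 36 control cells. The libraries shared 8 kept barcodes, and none of these was an Npr3-positive cell in both.

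**Figure D1:**
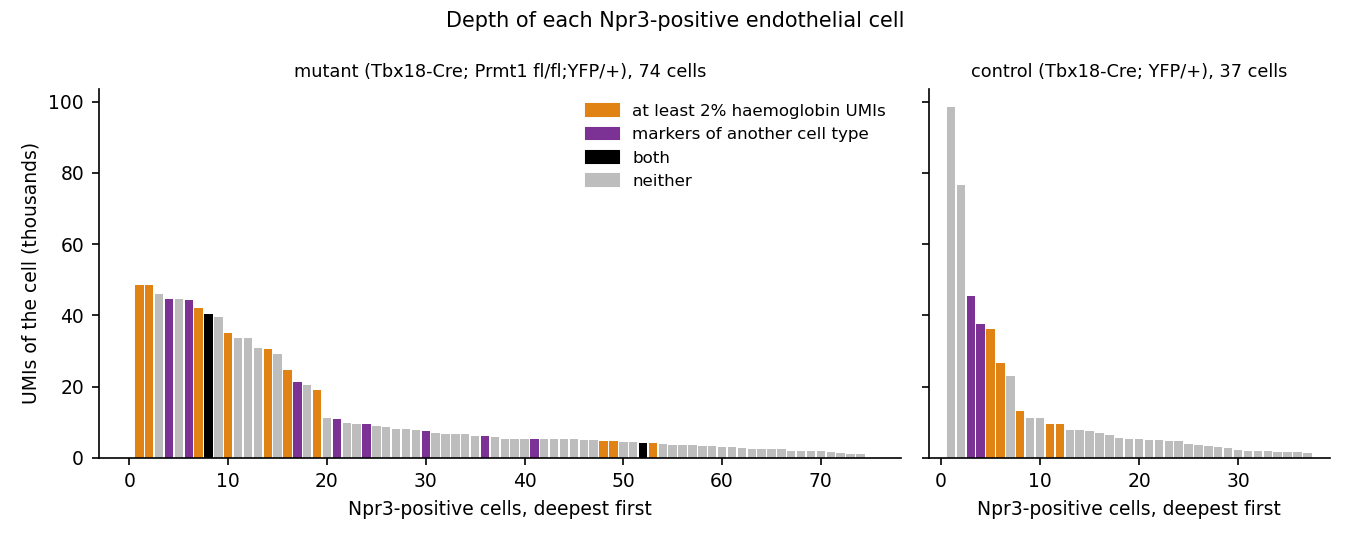
UMIs of each Npr3-positive endothelial cell (bars, in units of 1000), sorted from the deepest, in the mutant (74 cells) and control (37 cells) libraries. Orange marks cells with at least 2% haemoglobin UMIs, purple cells with markers of another cell type, black both and grey neither. The deepest control barcode gave 19.7% of the control UMIs, the deepest mutant barcode 5.10% of the mutant UMIs.

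The endothelial label fitted most of the marker genes in both libraries. Egfl7, a secreted factor of endothelial cells, was read in 73 of 74 mutant and 37 of 37 control cells, at 709 and 824 CPM (UMIs of the gene per 1000000 UMIs of the summed cells). Emcn, an endothelial sialomucin, was read in 60 and 30 cells, at 416 CPM in mutant and 447 CPM in control cells. Pecam1, an adhesion molecule of endothelial junctions, was read in 34 and 16 cells, at 165 and 85.8 CPM. These 3 genes were part of the rule, so their levels are a description. Of endothelial genes outside the rule, Ramp2, an adrenomedullin receptor subunit, stood at 1309 CPM in mutant and 1655 CPM in control cells, and Klf2, a flow-responsive transcription factor, at 3036 and 2605 CPM. Kdr, the main VEGF receptor, stood at 131 and 75.8 CPM, Tek, the angiopoietin receptor, at 130 and 85.8 CPM, and Plvap, a component of endothelial diaphragms, at 408 and 349 CPM. Other endothelial genes were sparse. Of the 25 listed outside the rule and found, 15 had at least 50 CPM in 1 library and 30 UMIs over both. In the control 2 had no UMI. Cldn5 and Robo4 were read in 6 and 5 mutant cells and in 0 control cells, and Erg in 3 mutant and 2 control cells. In the cells of the cardiomyocyte gate the levels of Emcn, Pecam1, Kdr and Plvap lay between 0.262 and 4.18 CPM.

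Endocardial genes other than Npr3 were read at levels that ranged widely. Of the transcription factors, Gata6 stood at 179 CPM in mutant and 97.8 CPM in control cells, Hand2 at 150 and 112 CPM, and Gata4 at 50.3 and 49.9 CPM. Nfatc1, the calcineurin-regulated factor of valve endocardium, was read in 19 of 74 mutant and 4 of 37 control cells, at 44.0 and 49.9 CPM. Tmem100, a target of BMP signalling in endothelium, was read in 14 and 9 cells, at 21.0 and 24.0 CPM. Hapln1, a hyaluronan link protein of the cardiac jelly, stood at 211 and 228 CPM, and Fabp5, a fatty acid binding protein, at 1758 and 2305 CPM. None of these 7 genes except Gata6 differed by more than 1.5-fold between the libraries on the log2(CPM + 10) scale. Levels are UMI counts of 3′ tags and were not divided by gene length. They serve to compare libraries and cell groups, and not genes.

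**Figure D2:**
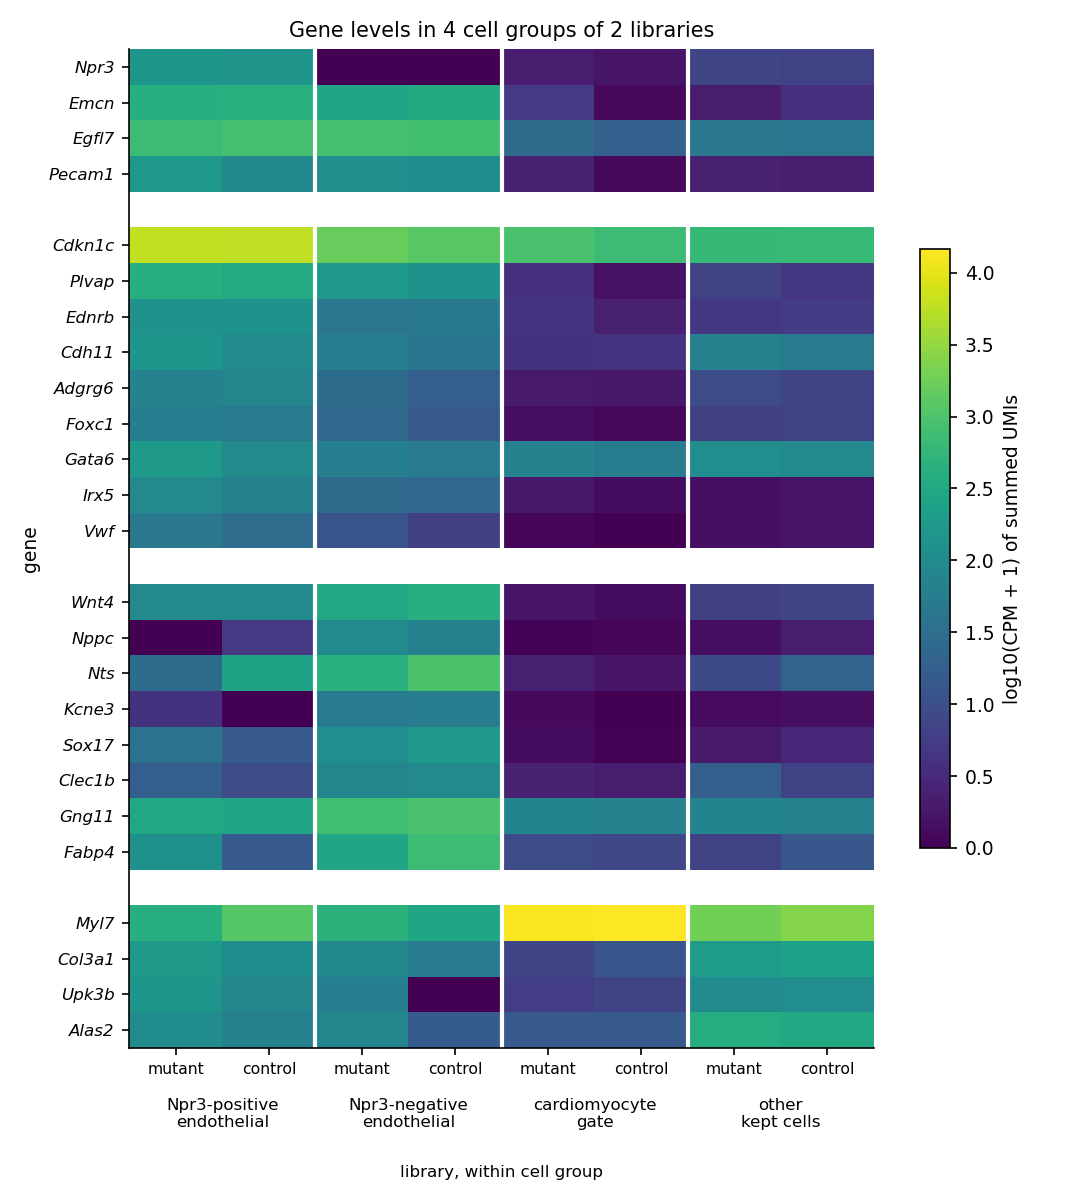
Levels of named genes as log10(CPM + 1) of summed UMIs (colour scale) in the Npr3-positive endothelial, Npr3-negative endothelial, cardiomyocyte-gate and other kept cells, mutant and control side by side. Rows run from the marker genes through genes higher and lower in Npr3-positive cells to markers of other cell types (Myl7, Col3a1, Upk3b, Alas2). Cdkn1c was the brightest row of the Npr3-positive cells, at 6142 CPM in mutant and 5916 CPM in control Npr3-positive cells.

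Npr3 itself was sparse. It gave 151 UMIs in the mutant (158 CPM, 134 to 186) and 70 UMIs in the control (140 CPM, 109 to 177). A single Npr3 UMI put 49 of the 74 mutant and 24 of the 37 control cells into the group, 2 or 3 UMIs were read in 15 and 8 cells, and at least 4 in 10 and 5 cells, up to 12 UMIs in a mutant and 10 UMIs in a control cell. The cells with most Npr3 UMIs were the deepest, with a median of 31417 UMIs in the mutant and 26724 UMIs in the control for cells with at least 4, against 9886 and 3989.5 UMIs for cells with 2 or 3 and 4655 and 5136.5 UMIs for cells with 1. Scaled per cell, the median was 2.20 Npr3 UMIs per 10000 in the mutant and 2.09 in the control, with ranges of 0.218 to 8.55 and 0.130 to 19.1. At the edge of the rule, 6 mutant and 2 control members had exactly 3 endothelial UMIs. Just outside it, 21 mutant and 13 control cells had an Npr3 UMI with 1 or 2 endothelial UMIs.

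An Npr3 UMI also occurred outside the endothelial cells, and whether such reads were background was not tested. In the cardiomyocyte gate 24 of 1608 mutant cells (1.49%) and 22 of 2018 control cells (1.09%) had one, at median depths of 12801 and 11665 UMIs and levels of 1.14 and 0.728 CPM. In the remaining kept cells the shares were 2.32% and 1.82%, at median depths of 2546 and 2264 UMIs. Among endothelial cells 74 of 321 in the mutant (23.1%, 18.6 to 28.1) and 37 of 211 in the control (17.5%, 12.7 to 23.4) had an Npr3 UMI. Thus the endothelial share was more than 10 times that of the muscle cells in both libraries, although the muscle cells were the deeper ones.

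**Figure D3:**
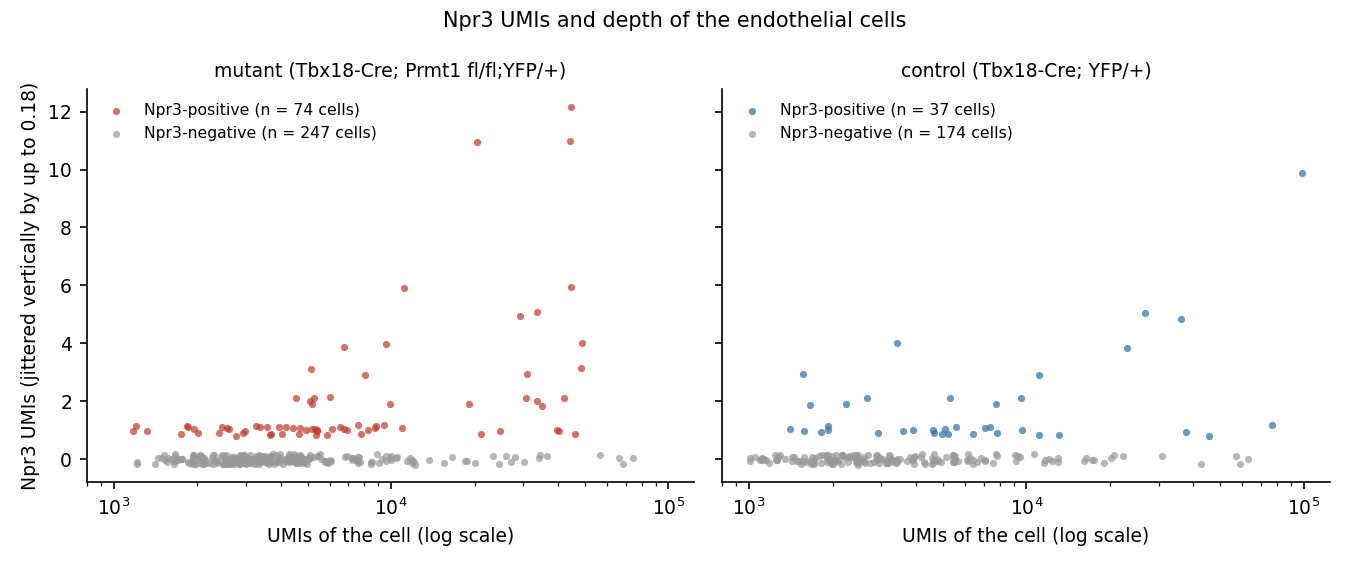
Npr3 UMIs of each endothelial cell (vertical axis, jittered by up to 0.18) against the UMIs of the cell (horizontal log axis), in the mutant (74 positive and 247 negative cells) and the control (37 and 174). Most positive cells had 1 Npr3 UMI, and the cells with at least 4 had median depths of 31417 UMIs in the mutant and 26724 UMIs in the control.

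Npr3-positive endothelial cells made up 1.59% of the kept mutant cells (1.25 to 1.998) and 0.902% of the kept control cells (0.636 to 1.24). The mutant share was 0.692 percentage points higher (0.225 to 1.16). The whole endothelial gate was larger as well, at 6.92% of mutant and 5.15% of control cells, a difference of 1.77 points (0.772 to 2.77). Within the endothelial cells the Npr3-positive share was 5.52 points higher in the mutant (−1.60 to 12.2), an interval that spans 0. With every cell brought to 1000 UMIs the expected share with an Npr3 UMI was 6.02% of mutant and 5.38% of control endothelial cells. With at least 2 Npr3 UMIs asked of each cell, 25 mutant and 13 control cells remained, and their share of the kept cells differed by 0.222 points (−0.0622 to 0.509). Without the shallower barcode of each matching pair the difference was 0.613 points (0.155 to 1.07). The cardiomyocyte gate held 1608 of the 4640 mutant and 2018 of the 4100 control cells, and the part of this makeup in the shares was not tested.

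The Npr3-positive cells differed most plainly from the Npr3-negative endothelial cells in Cdkn1c, an imprinted gene that encodes the cyclin-dependent kinase inhibitor p57 (chromosome 7, 143458339 to 143461050 on the minus strand, GRCm38). Its level was 6142 CPM in Npr3-positive against 1582 CPM in Npr3-negative cells of the mutant, and 5916 against 1191 CPM in the control. The ratio was 3.88 (3.70 to 4.07) in the mutant and 4.97 (4.64 to 5.32) in the control. Cdkn1c was read in 69 of 74 and 36 of 37 Npr3-positive cells, against 160 of 247 and 98 of 174 Npr3-negative cells. Brought to 1000 UMIs per cell, the expected share was 79.3% against 48.5% in the mutant and 87.2% against 43.6% in the control. In the cardiomyocyte gate Cdkn1c stood at 925 and 724 CPM. The higher level in Npr3-positive cells was thus seen in both libraries, at equal depth, and also with each cell weighted equally (log2 differences of 1.23 and 1.64).

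Few genes were past 2-fold between the 2 endothelial groups in both libraries. Of 3052 genes with at least 50 CPM in 1 of the 4 sums and 30 UMIs over them, 26 (0.852%) were at least 2-fold higher in Npr3-positive cells in both libraries and 25 (0.819%) at least 2-fold lower. The medians of all genes were 0.03 in the mutant and −0.02 in the control on the log2(CPM + 10) scale used for all differences. In the mutant alone 115 genes were past 2-fold higher and 64 lower, and in the control alone 91 and 86. Of the 3052 genes, 1286 had opposite signs in the 2 libraries. The 1 sex gene measured was higher in Npr3-positive cells, by 0.84 in the mutant and 2.09 in the control. The part of the sex of the embryos in these sums was not tested. Because Npr3 and the endothelial genes separated the groups, and Npr3-positive cells were the deeper ones, these counts are a description. At 1000 UMIs per cell, an Npr3 UMI was expected in only 26.1% of mutant and 30.7% of control Npr3-positive cells. The Npr3-negative cells had median depths of 3556 and 2915.5 UMIs and may include endocardial cells whose Npr3 was not read. How many did was not tested. With each cell weighted equally, and the minimums applied to those levels, 24 genes were higher and 19 lower, and 4 of the 26 and 13 of the 25 were among them. Without the shallower barcode of each matching pair 34 were higher and 18 lower, of which 21 and 16 were among the 26 and 25.

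Of the endocardial genes, 15 of 28 listed reached the minimums, 5 were past 2-fold higher in both libraries and 0 were past 2-fold lower. Their median difference was 1.05 in the mutant and 0.64 in the control, and 0.58 and 0.68 with each cell weighted equally. Over all alternatives run it lay between 0.36 and 1.29 in the mutant and between 0.50 and 1.12 in the control, the lowest mutant value with cells thinned to 1000 UMIs. Ednrb, the endothelin receptor B gene, had 127 CPM in Npr3-positive against 43.7 CPM in Npr3-negative cells of the mutant and 132 against 46.7 CPM in the control. Cdh11, a cadherin of cells that undergo mesenchymal transition, had 154 against 60.4 CPM in the mutant and 93.8 against 40.6 CPM in the control. Foxc1, a forkhead factor, had 62.9 against 23.8 CPM and 51.9 against 14.2 CPM. Plvap and Adgrg6, an adhesion G protein-coupled receptor, were the other two, with differences of 1.24 and 1.07 in the mutant and 1.34 and 1.77 in the control. All 5 were higher in both libraries, although with each cell weighted equally Foxc1 had differences of 0.40 and 0.98 and Cdh11 of 0.79 and 0.99. Gata6 was past 2-fold in the mutant (1.41) and not in the control (0.80), and Cgnl1, a junctional protein gene, likewise (1.05 and 0.64). Hapln1 (−0.47 and −0.25) was lower in both, and Nfatc1 (0.12 and −0.14) was at about the same level in the 2 groups. Vwf, the von Willebrand factor gene, was below the minimums, at 46.1 against 10.9 CPM in the mutant and 29.9 against 5.08 CPM in the control.

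Genes outside that list were also higher in the Npr3-positive cells. Irx5, an Iroquois homeobox gene, had 89.1 against 26.3 CPM in the mutant and 65.9 against 22.4 CPM in the control. Maged2, a MAGE family gene, had 506 against 188 CPM and 357 against 140 CPM. Maged2 was read in 40 mutant and 24 control Npr3-positive cells. Cpe, Bgn, Pkdcc, Col26a1, Gas1, Rasgef1b and Cited2 had differences of 1.12 to 1.48 in the mutant and 1.20 to 1.46 in the control, and among them Bgn encodes the matrix proteoglycan biglycan and Cited2 a transcriptional coregulator. Spon2 (1.48 and 2.68) and Ttr (1.17 and 3.74) rested on single control barcodes, which held 81.1% and 97.8% of their control UMIs.

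Among the genes lower in Npr3-positive cells were ligands and vessel genes. Nppc, which encodes C-type natriuretic peptide, was not read in any mutant Npr3-positive cell, which allows up to 3.15 CPM, and had 95.1 CPM in Npr3-negative cells of the mutant. In the control it had 3.99 CPM in Npr3-positive against 66.0 CPM in Npr3-negative cells. It was read in few negative cells as well, 9 of 247 and 5 of 174, so the sums rest on few cells. Npr1, the guanylyl cyclase receptor of atrial natriuretic peptide, had 13.6 against 28.3 CPM in the mutant and 9.98 against 23.4 CPM in the control. Wnt4, a Wnt ligand, had 95.4 against 323 CPM in the mutant and 99.8 against 409 CPM in the control, with differences of −1.66 and −1.93. The control difference stayed past 2-fold under 14 of 17 alternatives. Wnt4 was read in 18.9% of positive against 14.6% of negative cells in the mutant, and in 13.5% against 13.8% in the control. Brought to 1000 UMIs per cell, the expected shares were 3.62% against 7.13% and 3.48% against 6.98%. Wnt9b, below the minimums, had 4.19 against 48.2 CPM and 3.99 against 29.5 CPM. Both Wnt genes were thus lower in Npr3-positive cells of each library, while of the 7 measured endocardial ligands Wnt4 alone was past 2-fold in both.

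Of the coronary and vascular endothelial genes, 8 of 26 reached the minimums, 3 were past 2-fold lower in both libraries and 0 past 2-fold higher. Their median difference was −0.86 in the mutant and −1.18 in the control, and −0.53 and −0.62 with each cell weighted equally. In the mutant it was −0.08 without cells of at least 2% haemoglobin, a value close to 0. Fabp4, a fatty acid binding protein of vessel endothelium, had 122 CPM in Npr3-positive against 285 CPM in Npr3-negative cells of the mutant and 14.0 against 719 CPM in the control. Kcne3, a potassium channel subunit, had 3.15 against 54.0 CPM in the mutant and none against 56.9 CPM in the control, where none allows up to 5.99 CPM. Sox17, an arterial transcription factor, had 36.7 against 111 CPM and 14.0 against 164 CPM. All 3 were lower in both libraries, and Sox17 had a difference of −0.64 in the mutant with each cell weighted equally. The list did not move as one: Nr2f2, the venous factor COUP-TFII, was higher in Npr3-positive cells (99.6 against 45.0 CPM and 108 against 22.4 CPM), and so was Gja4, the connexin 37 gene (249 against 191 CPM and 309 against 136 CPM).

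**Figure D4:**
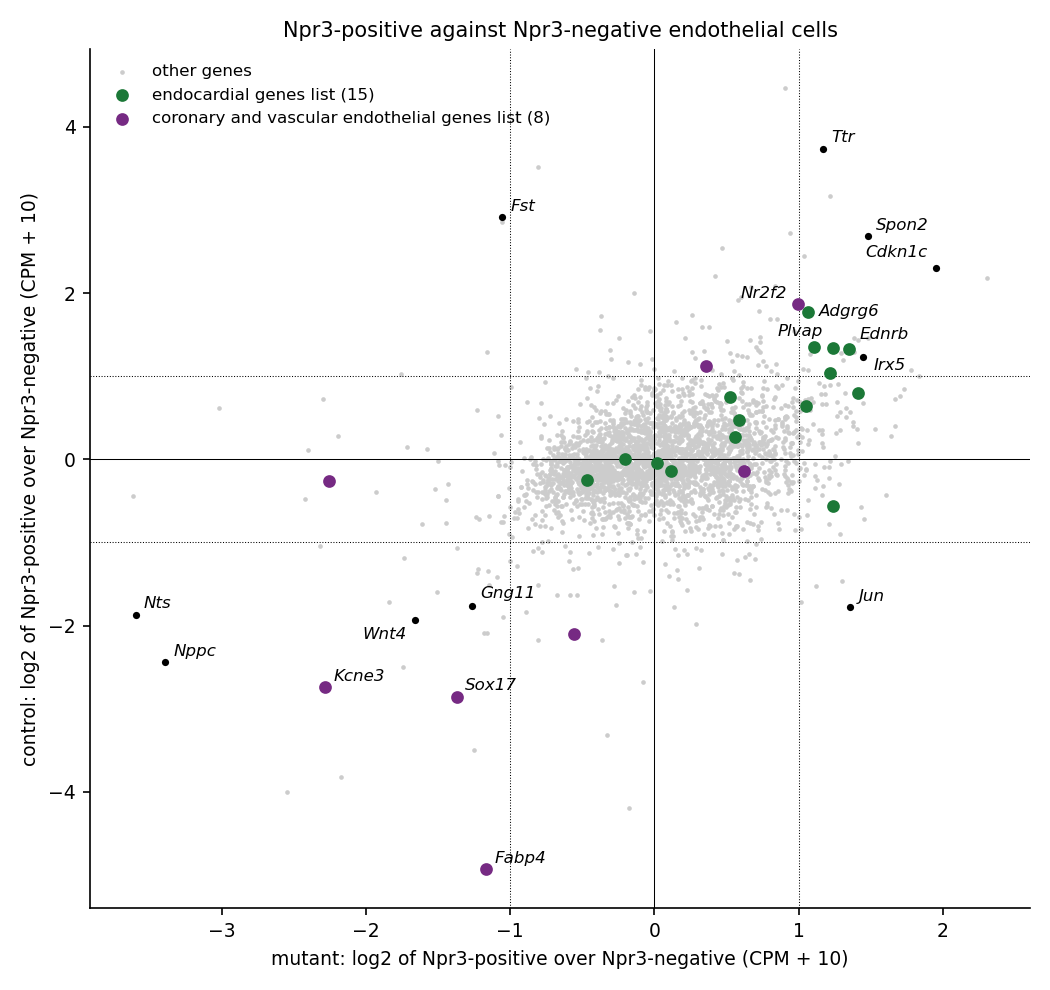
Log2 difference of Npr3-positive over Npr3-negative endothelial cells (CPM + 10) in the mutant (horizontal) and the control (vertical), 1 point per gene tested, with dotted lines at 2-fold. The endocardial list (green, 15 genes) had medians of 1.05 and 0.64, and the coronary and vascular list (purple, 8 genes) medians of −0.86 and −1.18. Jun and Fst lay on opposite sides in the 2 libraries.

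Further genes that were lower in both libraries were Nts, the neurotensin gene (28.3 against 454 CPM in the mutant and 255 against 959 CPM in the control), Gng11, a G protein gamma subunit (317 against 775 CPM and 269 against 944 CPM), and Clec1b, a C-type lectin gene (16.8 against 79.7 CPM and 7.98 against 91.4 CPM). Gng11 was broadly read, in 62 of 74 and 32 of 37 Npr3-positive cells, and kept differences of −1.13 and −1.02 with each cell weighted equally. Gap43, Adamts8 and Fxyd7 had differences of −1.23 to −1.84 in the mutant and −1.37 to −1.72 in the control. Adamts8 and Fxyd7 were at a single UMI each in the control Npr3-positive cells.

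The other gene lists had few genes past 2-fold in both libraries. Of the pan-endothelial genes outside the rule, 1 of 16 measured was past 2-fold higher in both libraries (Plvap) and 1 past 2-fold lower (Sox17), with medians of 0.46 in the mutant and −0.13 in the control. The Notch list (4 measured), the BMP and TGF-beta list (7 measured), the VEGF and angiopoietin list (7 measured) and the basement membrane list (14 measured) each had 0 genes past 2-fold in both. For these lists the medians were 0.39 to 0.61 in the mutant and −0.08 to −0.36 in the control. With each cell weighted equally the control medians of the Notch (0.41), BMP and TGF-beta (0.31) and basement membrane (0.25) lists were above 0, as the mutant ones were. Growth factor binding and uptake genes had medians of 1.01 and 0.69 over 5 measured genes, of which 0 were past 2-fold in both, and of 0.55 and 0.41 with each cell weighted equally. Among them Ctsl, the lysosomal protease cathepsin L, had 966 against 446 CPM in the mutant and 685 against 422 CPM in the control, and Igf2r, the receptor that takes up IGF2, had 375 against 123 CPM and 156 against 119 CPM.

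Transcripts of other cell types were present in the Npr3-positive cells. The 20 cardiomyocyte markers summed to 1364 CPM in mutant and 3669 CPM in control cells, against 2264 and 3797 CPM in Npr3-negative cells and 87359 and 90508 CPM in the cardiomyocyte gate. The erythroid markers summed to 84165 and 63923 CPM, against 69007 and 23725 CPM in Npr3-negative cells. Nearly all of it sat in a few cells: 12 of 74 mutant (16.2%) and 5 of 37 control cells (13.5%) had at least 2% haemoglobin UMIs, and in the other cells haemoglobin made up 0.0412% and 0.0468% of UMIs. Among Npr3-negative cells 17 of 247 (6.88%) and 9 of 174 (5.17%) had at least 2%. The 13 epicardial markers summed to 454 CPM in mutant and 439 CPM in control cells, against 215 and 19.3 CPM in Npr3-negative cells. The 16 mesenchymal markers summed to 1258 and 842 CPM, against 783 and 469 CPM. Immune markers summed to 16.8 and 7.98 CPM, with 9 and 11 of 14 at 0, megakaryocyte markers to 21.0 and 37.9 CPM, and lymphatic markers to 54.5 and 19.96 CPM.

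The epicardial and muscle transcripts of the control came mostly from single barcodes. The third deepest control barcode, with 45349 UMIs, held 3 endothelial UMIs, the minimum, and had 47.4 epicardial and 45.4 mesenchymal UMIs per 10000. It gave 98.4% of the Krt18 and 100% of the Upk3b UMIs of the control. The fourth, with 37583 UMIs, had 318 cardiomyocyte-marker UMIs per 10000 and 19.4 from Tnnt2 and Tnnc1. Across both libraries 10 mutant and 2 control Npr3-positive cells exceeded 20 epicardial or mesenchymal or 50 cardiomyocyte UMIs per 10000, and they held 20.3% and 16.6% of the UMIs. Without such cells in either endothelial group the endocardial list had medians of 1.01 in the mutant and 1.12 in the control, the coronary and vascular list −0.83 and −1.20, and Cdkn1c 2.07 and 2.08. The counts past 2-fold in both libraries were then 31 higher and 17 lower, of which 16 and 13 were among the 26 and 25 above.

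For mutant against control, Prmt1 itself came first. Prmt1, the main asymmetric protein arginine methyltransferase, had 403 UMIs in the mutant (423 CPM) and 260 UMIs in the control (519 CPM) of Npr3-positive cells, and was read in 66 of 74 and 35 of 37 cells. The ratio was 0.814 (0.695 to 0.955). In Npr3-negative endothelial cells it had 612 CPM in mutant and 589 CPM in control cells. Prmt1 transcript was thus present in the endocardial cells of both genotypes, at levels within 1.5-fold of each other. The 3′ tags of this assay can lie outside the deleted part of the gene, so the level does not check the deletion.

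Over 2908 genes with at least 50 CPM in 1 library and 30 UMIs over both, 537 (18.5%) were at least 1.5-fold higher in the mutant Npr3-positive cells and 369 (12.7%) at least 1.5-fold lower, with a median of −0.05 over all genes. Scaled by the median of gene ratios the counts were 719 higher and 222 lower of 2992 genes, and scaled without mitochondrial, ribosomal and haemoglobin genes they were 939 higher and 341 lower of 3795. With each cell weighted equally 501 of the 2908 genes were past 1.5-fold higher and 207 lower, and 305 (10.5%) and 108 (3.71%) were past it by both weightings. Without the shallower barcode of each matching pair 453 were higher and 367 lower of 2904. Minimums of 100 CPM and 60 UMIs gave 221 higher and 257 lower of 1634. The mutant sum held 953667 UMIs and the control sum 500992 UMIs, so genes high in the mutant reached 30 UMIs more easily. Minimums of 10 CPM and 1 UMI gave 1860 higher and 664 lower of 7769. The excess of higher over lower genes thus changed with the minimums, and the part of the unequal sums in it was not tested. The counts of the gene lists stand against these shares, and with 18.5% of all genes past the fold in the mutant a few list members past it are no result about the list.

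The endocardial identity genes were at similar levels in the 2 genotypes. Of 14 endocardial genes measured, 3 were past 1.5-fold higher in the mutant and 0 lower, with a median of 0.16 (0.03 with each cell weighted equally). Those 3 were Edn1, the endothelin 1 gene (74.4 CPM in mutant and 16.0 CPM in control cells), Gata6 and Cdh11. The rule genes chose the cells, so their levels are a description. Of them, Pecam1 and Cdh5, the VE-cadherin gene, were past 1.5-fold higher in the sums (165 and 221 CPM in the mutant, against 85.8 and 112 CPM in the control). Npr3, Emcn, Egfl7, Ecscr and Esam were not. With each cell weighted equally 1 rule gene was past 1.5-fold higher and 1 lower, with a median of −0.20 against 0.14 in the sums. Cdkn1c had a ratio of 1.04 (0.993 to 1.09). The level of the gene that most plainly separated Npr3-positive from Npr3-negative cells thus hardly differed between the genotypes.

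In each signalling list some genes were past the fold higher in the mutant and 0 were past it lower. The minimums admitted genes high in the mutant more easily, as given above. The part of this in the counts was not tested, so they are a description. Of 4 Notch genes measured 2 were past 1.5-fold higher, Notch1 (97.5 CPM in mutant and 29.9 CPM in control cells) and the target Hes1 (212 and 122 CPM), with a median of 0.62, or 0.19 with each cell weighted equally. Of 7 VEGF and angiopoietin genes 3 were higher and 0 lower, with a median of 0.55, or 0.75 with each cell weighted equally. Nrp1, a VEGF and semaphorin coreceptor, had 115 CPM in mutant and 31.9 CPM in control cells, and Kdr 131 and 75.8 CPM. Of 7 BMP and TGF-beta genes 2 were higher and 0 lower (median 0.49, or 0.66 with each cell weighted equally). Of 7 flow genes 4 were higher and 0 lower, among them Klf4 at 158 CPM in mutant and 47.9 CPM in control cells. The flow median was 0.64, or 0.61 with each cell weighted equally and 0.08 with at least 2 Npr3 UMIs. Of 7 ligand genes 3 were higher, Edn1, Efnb2 and Hbegf, with a median of −0.06, which was 0.13 with each cell weighted equally, 0.51 without the deepest barcodes and 0.79 with cells thinned to 1000 UMIs. In Npr3-negative cells the medians of these 5 lists were −0.27 to 0.24.

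Matrix and G2/M genes had higher medians in the mutant in the sums than by cell, and the S phase median was near 0. Of 13 basement membrane and matrix genes 8 were past 1.5-fold higher and 0 lower, with a median of 0.81 in the sums, 0.38 with each cell weighted equally and 0.03 with cells thinned to 1000 UMIs. Hspg2, the perlecan gene, had 154 CPM in mutant and 65.9 CPM in control cells, Nid1, the nidogen gene, 79.7 and 29.9 CPM, and Col4a2 136 and 63.9 CPM, while Fn1, the fibronectin gene, had 665 and 741 CPM. Of 16 G2/M genes 9 were higher and 0 lower, with a median of 0.91 in the sums, 0.29 with each cell weighted equally and 0.49 without cells with markers of another type. Top2a, the DNA topoisomerase of dividing cells, had 240 CPM in mutant and 79.8 CPM in control cells, and Mki67 had 94.4 and 22.0 CPM. Of 15 S phase genes 5 were higher and 1 lower, with a median of 0.08. Of 7 transition genes 5 were higher and Acta2, the smooth muscle actin gene, was lower (66.1 CPM in mutant and 465 CPM in control cells, of which 73.8% came from 1 barcode). The median of the transition genes was 0.76 in the sums and 0.47 with each cell weighted equally, by which 2 were past 1.5-fold higher, and 0.28 with cells thinned to 1000 UMIs.

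The immediate early and dissociation response genes had the highest median of the lists measured, by both weightings. Of 17 measured, 11 were past 1.5-fold higher in the mutant and 0 lower, with a median of 1.03, and 10 of them were past it by both weightings. Jun, a component of the AP-1 factor (chromosome 4, 95049034 to 95052222 on the minus strand), had 802 CPM in mutant and 150 CPM in control cells, read in 40 of 74 and 12 of 37 cells, a ratio of 5.36 (4.22 to 6.89). Fos, its partner, had 498 and 178 CPM, Junb 210 and 59.9 CPM, Egr1 172 and 59.9 CPM and Atf3 359 and 186 CPM. Ier2 (690 and 806 CPM) and Nr4a1 (49.3 and 49.9 CPM) were not past the fold. The list median lay between 0.51, with cells thinned to 1000 UMIs, and 1.78, with at least 2 Npr3 UMIs, over the alternatives run. It was 0.70 with at most 10% mitochondrial UMIs, 0.79 without the shallower barcode of each matching pair, and −0.48 in the Npr3-negative cells, where Jun had 307 CPM in mutant and 538 CPM in control cells. These genes are known to be induced during tissue digestion, and the handling of the hearts cannot be told apart from the genotype with 1 library each.

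**Figure D5:**
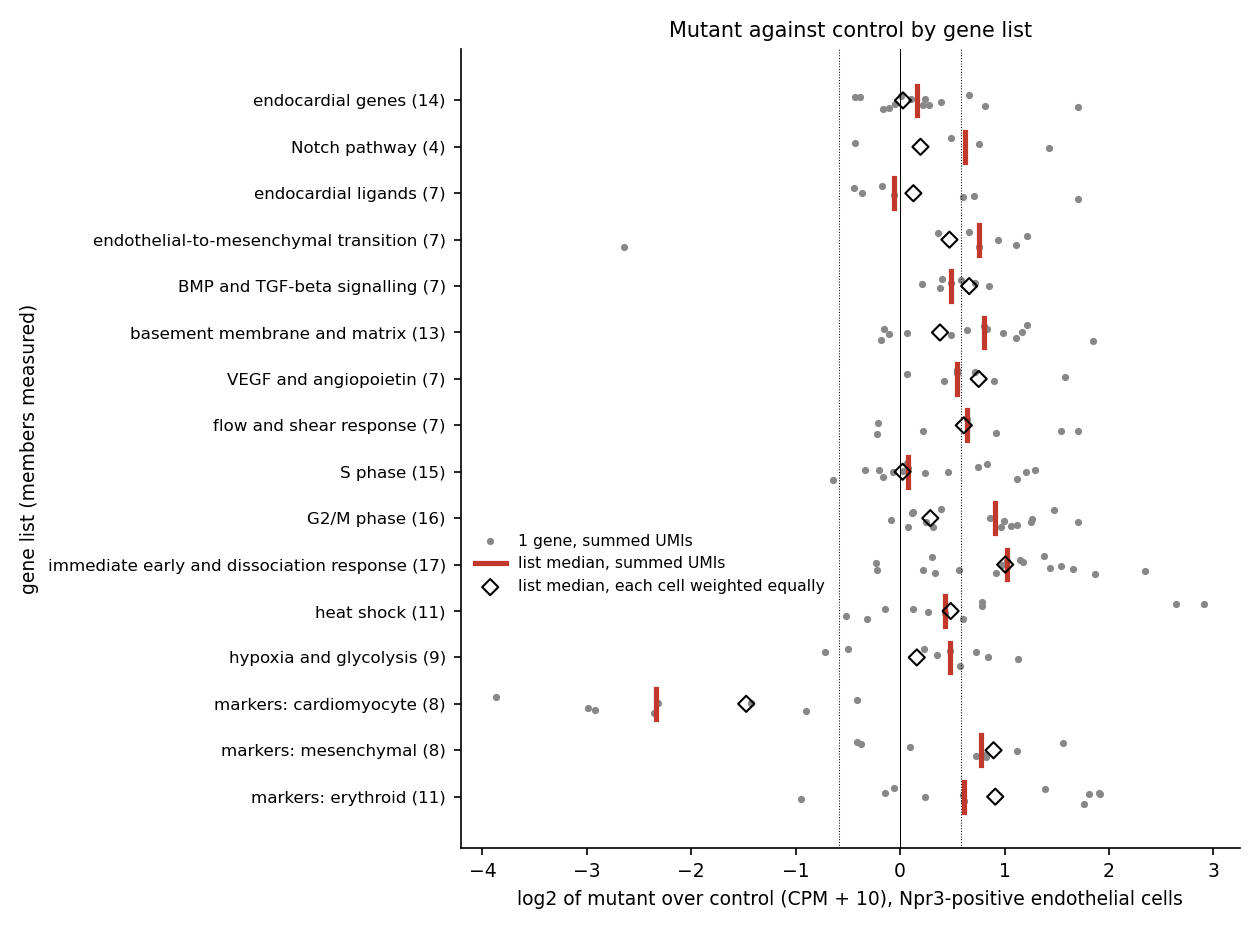
Log2 difference of mutant over control in Npr3-positive endothelial cells (CPM + 10), 1 grey point per measured gene of each list, with the median of the sums (red bar) and with each cell weighted equally (diamond) and dotted lines at 1.5-fold. The immediate early list had medians of 1.03 and 1.01, the endocardial list 0.16 and 0.03, and the cardiomyocyte markers −2.34 and −1.47.

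Of 11 heat shock genes 5 were higher and 0 lower, with a median of 0.43. Hspa1a, an inducible heat shock protein 70 gene, had 95.4 CPM in mutant and 3.99 CPM in control cells, and its near-identical neighbour Hspa1b had 52.4 CPM in the mutant and none in control cells, where 0 UMIs allow up to 5.99 CPM. Reads of the pair may have been split between them, and they were read in 8 and 5 mutant cells, of which a single one gave 49.5% and 48.0% of the UMIs. Hspa8, the constitutive member, had 1355 and 784 CPM. Of 9 hypoxia and glycolysis genes 3 were higher and 1 lower (median 0.48), of 4 p53 targets 1 was higher, Plk2, and 1 lower, Phlda3, and of 7 lipid genes 1 was higher and 3 lower (median −0.39).

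The genes with the largest differences between the genotypes rested mostly on few cells. Of the 10 highest in the mutant, Jun and Rcsd1 (65.0 CPM in mutant and 7.98 CPM in control cells, in 20 and 4 cells) were the most widely read. Cpa1, the carboxypeptidase A1 gene, had 74.4 and 3.99 CPM, of which 74.6% of the mutant UMIs came from 1 cell, and Fabp4 had 122 and 14.0 CPM from 4 and 2 cells. Sgk1, Mt1 and Cyr61 had differences of 2.12, 1.89 and 1.87, from 18, 14 and 11 mutant cells. Tpm3-rs7 (1.93) has near-identical copies, which makes its count uncertain. It was read in 18 mutant and 4 control Npr3-positive cells, in 42 and 0 Npr3-negative cells, and in 183 and 10 cells of the cardiomyocyte gate. Its difference was thus not particular to the Npr3-positive cells. Of the 10 lowest, 1 control barcode held 96.0% of the control UMIs of Stmn2, 94.0% of Ankrd1, 100% of Fst, 97.8% of Ttr, 94.1% of Myl9 and 92.7% of Igfbp7. Rbp7, Nts, Ass1 and Tgfb1i1 had 54.4% to 78.3% of their control UMIs in 1 barcode. None of these 10 was read in more than 6 control cells.

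Markers of other cell types moved with the genotype in the Npr3-positive sums, and their values without cells that carried such markers are given with them. Of 8 cardiomyocyte markers measured 0 were higher and 7 lower in the mutant, with a median of −2.34, and the median was 0.18 without the cells with markers of another type. Ankrd1 and Myl9 had differences of −3.03 and −2.76 with those cells and 0.08 and 0.02 without them, and Cpa1 had 2.59 and 0.28. Of 11 erythroid markers 7 were higher and 1 lower, with a median of 0.61, which was 0.21 without cells of at least 2% haemoglobin. Of 8 mesenchymal markers 5 were higher and 0 lower, with a median of 0.77, which was 0.90 without the cells with markers of another type. Without those cells with markers of another type, 460 genes were past 1.5-fold higher in the mutant and 324 lower, and Jun and Rcsd1 had differences of 2.90 and 1.98.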

How the data were processed

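Per the file headers, the authors made the deposited counts (UMIs for each gene and barcode) with Cell Ranger 3.0.2. Seurat is named in the submitters' processing notes with no version. The kit is v2 per the labels' protocols, although the 6794880 barcodes of the control file have the size of a later kit's list. The genome build is not given in the sources used here. Positions come from GENCODE M21 (GRCm38). Of 6794880 control barcodes 542175 had a UMI, and the mutant file held 7181 barcodes of at least 500 UMIs. The same minimums were applied to both. The members, gene lists and comparisons were chosen with earlier results of these data known.

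UMIs were summed over the cells of a group and divided by the group total (CPM), and compared as log2((CPM + 10)/(CPM + 10)) among genes with at least 50 CPM in a sum and 30 UMIs over all sums compared. Shares have Clopper-Pearson intervals, their differences Newcombe intervals, levels Poisson intervals and ratios conditional binomial intervals, all at 95% and for counting error only. A count of 0 was read as allowing 3 UMIs. Named genes are the 10 highest and 10 lowest for mutant against control, the 15 highest and 10 lowest for Npr3-positive against Npr3-negative cells by the smaller of both libraries' differences, the rule genes and members of 30 fixed lists (3 of 477 symbols unmatched); mitochondrial, ribosomal, haemoglobin and sex genes, Gm and Rik models and markers of other cell types stayed out of the rankings. Of the 15 highest, 1 is not reported here. Doublets were scored after the Scrublet method at a rate of 6% with 30 neighbours and not removed; 5 mutant and 0 control members were in the top 6%. The computation was checked on simulated counts (Python 3.11.15, numpy 2.4.6, scipy 1.17.1, pandas 2.3.3, scikit-learn 1.9.0, matplotlib 3.10.9). Alternatives changed the minimums, gates, offset, scaling, depth and weighting of cells.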

Additional observations from a re-analysis of the deposited data

Results flagged for a closer look

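Some results went in opposite directions in the 2 libraries when Npr3-positive cells were set against Npr3-negative endothelial cells, each past 2-fold except the control median of the gene list. None of these differences between libraries was tested, since each rests on 1 library. Jun had a log2 difference of 1.36 in the mutant and −1.78 in the control, Cyr61 of 1.30 and −1.46, and Rcsd1 of 1.12 and −1.52, so all 3 were higher in Npr3-positive cells of the mutant and lower in those of the control. The median of the immediate early and dissociation response list was 1.02 in the mutant and −0.71 in the control, but with each cell weighted equally 0.19 and −0.57, and the mutant median stayed past 2-fold under 7 of 17 alternatives. Ankrd1 (−1.05 and 2.86), Fst (−1.05 and 2.92), Ass1 (−1.16 and 1.30) and Igfbp7 (−1.76 and 1.03) were lower in Npr3-positive cells of the mutant and higher in those of the control. For these 4 genes 1 control barcode held 94.0%, 100%, 76.5% and 92.7% of the control UMIs of the Npr3-positive cells.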

How the results depend on the processing

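No paired analysis was possible because there was 1 library per genotype. The share of kept cells that were Npr3-positive stayed higher in the mutant under the alternatives run for it (0.222 to 0.841 points). Its interval spanned 0 where at least 2 Npr3 UMIs were asked (0.222, −0.0622 to 0.509). Thinning to 1000 UMIs per cell was not run for this share. In the thinned endothelial cells 18 mutant and 11 control cells had an Npr3 UMI. The share within endothelial cells stayed within an interval that spanned 0 (0.394 to 5.87 points).

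The counts past the fold moved by over 1.5 times under these settings. With at least 2 Npr3 UMIs the Npr3-positive cells had 67 genes higher and 69 lower than the negative ones. With each cell thinned to 1000 UMIs, which left 613 genes between genotypes and 2091 between groups, 50 genes were higher and 69 lower in the mutant and 17 higher in Npr3-positive cells. An offset of 1 CPM gave 46 genes higher in Npr3-positive cells, and an offset of 50 CPM gave 239 higher and 169 lower in the mutant and 3 higher and 9 lower in Npr3-positive cells. Minimums of 100 CPM and 60 UMIs gave 221 higher in the mutant and 11 higher in Npr3-positive cells. The genes lower in the mutant then numbered 257 of 1634, a count that moved less, so they outnumbered the higher ones. Minimums of 10 CPM and 1 UMI gave 1860 higher and 664 lower in the mutant. Scaling without mitochondrial, ribosomal and haemoglobin genes gave 939 higher in the mutant, and scaling by the median of gene ratios gave 222 lower. Genes lower in Npr3-positive cells numbered 15 with Tnnt2 and Tnnc1 under 10 UMIs per 10000 and 11 without cells of at least 2% haemoglobin.

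Some values past the fold changed sign (log2 differences). For mutant over control these were Ankrd1 (0.051) and Myl9 (0.60) with Tnnt2 and Tnnc1 under 10; Ankrd1 (0.077), Myl9 (0.020) and the cardiomyocyte list (0.18) without cells with markers of another type; Fabp4 (−1.45), Stmn2 (0.90), Myl9 (0.64), Igfbp7 (2.98), the cardiomyocyte list (0.45) and the erythroid list (−0.10) with at least 2 Npr3 UMIs; Igfbp7 (3.19) when thinned; and Fst (1.15) and Ttr (0.89) without the deepest barcodes. For Npr3-positive over Npr3-negative in the control these were, when thinned, Cited2 (−1.45), Rasgef1b (−1.10), Gas1 (−1.10) and Adamts8 (1.23); Adamts8 (0.037) with cells weighted equally; the mural list (0.29 with at least 5 endothelial UMIs and 3 genes, 0.34 without cells with markers of another type); and the erythroid list (−0.57) without cells of at least 2% haemoglobin. In the mutant Cpe (−0.57) and Col26a1 (−0.16) did so when thinned. Of 1003 list medians under an alternative, another 49 that were within the fold changed sign, such as mutant over control for the ligand list and for the rule genes (−0.20 with cells weighted equally, against 0.14). Thinning, at least 2 Npr3 UMIs and leaving out cells use fewer UMIs or cells, and other causes were not tested. Of 816 single-gene values between groups 733 kept direction and side of the fold, and of 340 between genotypes 321 did. The alternatives on matching barcodes, haemoglobin, markers of another type and the deepest barcodes were chosen after seeing the data. Sparse depth limits all of this: most Npr3-positive cells rest on 1 Npr3 UMI.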

Other observations

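Fdps and Hmgcs1 of the mevalonate pathway, which makes sterols, were read at lower levels in Npr3-positive than in Npr3-negative endothelial cells. These genes belong to none of the fixed lists and were picked with their values in view. Fdps, the farnesyl diphosphate synthase gene, had 94.4 CPM in Npr3-positive against 199 CPM in Npr3-negative cells of the mutant and 122 against 298 CPM in the control. Hmgcs1, which encodes a synthase early in the pathway, had 24.1 against 67.5 CPM and 9.98 against 75.2 CPM, from 5 UMIs in the control Npr3-positive cells. Fdft1, the squalene synthase gene, was lower in the mutant (29.4 against 44.3 CPM) and higher in the control (65.9 against 35.6 CPM).

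Some other genes were higher in Npr3-positive cells of both libraries. Tgfbr3, the betaglycan gene, Fn1 and Lbp were likewise picked. Tgfbr3 had 31.5 against 9.64 CPM in the mutant and 17.96 against 3.05 CPM in the control, and was below the minimums. Fn1 had 665 against 335 CPM in the mutant and 741 against 247 CPM in the control, of which 1 barcode gave 43.9% of the control UMIs. Lbp, the lipopolysaccharide binding protein gene, had 61.9 against 10.9 CPM and 23.95 against 6.10 CPM. Of the other protein arginine methyltransferases none reached the minimums. Prmt5 had 23.1 CPM in mutant and 9.98 CPM in control Npr3-positive cells, and Carm1 had 16.8 and 11.98 CPM.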
